A study of Mus musculus with 12 samples.

Results

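Il17b, Il17rc and Il17rd are the interleukin-17 ligand and receptor genes that differed most between 2 transplanted mouse melanoma lines on a focused Affymetrix array of glycan, lectin, cytokine and growth factor genes. They are 3 of 909 named genes and 3 of 1246 probe sets in the deposited table, with 1 probe set each, and were taken by name, with the brightest probe set to stand for a gene, after earlier results of the same arrays had shown a difference between the tumour lines. That line difference is therefore given as a description without a test. The comparisons between hosts and the interaction of line and host were not the difference that chose the genes, and they were tested. The interaction and the host comparisons within a line share arrays with the line difference in each host. They are therefore free of the choice only if it rested on the line difference averaged over hosts.

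Total RNA came from tumours of 4 groups of 3 arrays each. Wild-type (WT) mice and galectin-3 knockout mice (Gal3 -/-, which lack the lectin gene Lgals3) were injected with the line Tm1N3 or Tm1G3. The sample titles do not say which line makes galectin-3. The question of the series was what galectin-3 from each source, tumour cell or host, does to the growing tumour, and its design text describes a melanoma line with a silent galectin-3 gene and a plasmid that codes for galectin-3. The age, sex and strain of the mice, the promoter of the plasmid and whether a line is 1 clone are not stated there or in the labels, so line and clone cannot be told apart. Nor do the labels say that each replicate is a separate animal, and the p-values below cover only the spread among these samples, which may be technical.

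The interleukin-17 family consists of secreted cytokines and of single-pass receptor chains that work in pairs. IL-17RA is the shared chain, IL-17RC joins it to bind IL-17A and IL-17F, IL-17RE joins it for IL-17C, and IL-17RB binds IL-17B and IL-25. IL-17RD, also called Sef, is a relative of these chains best known as an inhibitor of fibroblast growth factor (FGF) signalling, and the family is known in tumours for its effects on neutrophil recruitment, inflammation and vessel growth.

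The promoters of the 2 receptor genes are shown because both genes were lower in the same line. They are the bases before the gene start in RefSeq's mouse genes of build GRCm38.p6, 5′ to 3′ on the plus strand, at chr6:113471205-113471454 for Il17rc (250 bases) and chr14:27038751-27038963 for Il17rd (213 bases, the 37 next to the listed start being left out because they lie within the gene's annotated span). Capitals mark the GC box letters GGGCGG.
Il17rc: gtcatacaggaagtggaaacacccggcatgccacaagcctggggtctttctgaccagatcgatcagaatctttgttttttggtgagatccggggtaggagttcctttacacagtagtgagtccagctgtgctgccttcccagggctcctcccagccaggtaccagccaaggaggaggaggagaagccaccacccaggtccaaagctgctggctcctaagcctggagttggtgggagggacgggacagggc
Il17rd: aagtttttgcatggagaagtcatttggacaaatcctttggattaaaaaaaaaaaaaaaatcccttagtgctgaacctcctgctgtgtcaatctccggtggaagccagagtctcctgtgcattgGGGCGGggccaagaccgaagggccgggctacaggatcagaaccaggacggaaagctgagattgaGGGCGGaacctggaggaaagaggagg

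The letters were searched on both strands in the 250 bases before the listed start. Il17rd held GGGCGG 2 times and Il17rc held none, where 32.7% of 32851 promoters of the same length held at least 1. Neither held the E-box CACGTG (6.02% of promoters), the related letters CATGTG (12.3%), the AP-1 letters TGANTCA (6.75%) or TATAAA (12.4%). The window of Il17rc was 57.6% G and C with 4 CpG pairs, and that of Il17rd 54.4% with 10 CpG pairs. The 2 windows thus shared none of the letters searched, which says nothing of the factors that bind there.

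Il17b was bright on this array, its mean log2 level of 9.39 standing at the 88.2 percentile of probe sets. The log2 levels of the Tm1N3 tumours were 9.61, 9.89 and 9.89 with a wild-type host and 9.52, 9.90 and 9.56 with a knockout host. Those of the Tm1G3 tumours were 9.12, 8.96 and 8.43 with a wild-type host and 9.38, 9.27 and 9.16 with a knockout host. Every Tm1N3 array lay above every Tm1G3 array, with 0.15 between the nearest arrays of the lines.

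The line difference of Il17b, Tm1N3 minus Tm1G3, was 0.96 ± 0.17 (log2; moderated SE from limma) among wild-type hosts, or 1.94-fold, and 0.39 ± 0.17 among knockout hosts, or 1.31-fold. Averaged over hosts it was 0.68 ± 0.12, with a 95% interval from 0.41 to 0.94. The lowest array of all, at 8.43, was WT_Tm1G3 replicate 3. Without it the difference in wild-type hosts was 0.76 and the averaged one 0.58, the lowest values with an array left out. The highest were 1.10 and 0.75, without WT_Tm1G3 replicate 1.

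Il17rc, the chain that completes the receptor for IL-17A and IL-17F, stood at the 81.5 percentile with a mean log2 level of 8.57. Tm1N3 tumours gave 8.45, 8.12 and 8.29 with a wild-type host and 8.37, 8.49 and 8.33 with a knockout host. Tm1G3 tumours gave 8.69, 8.61 and 8.77 with a wild-type host and 9.01, 8.88 and 8.80 with a knockout host. Here the order of the lines was the opposite of that of Il17b, with all 6 Tm1N3 arrays below all 6 Tm1G3 arrays and 0.12 between the nearest. The line difference was -0.40 ± 0.09 (SE) for wild-type hosts, -0.50 ± 0.09 for knockout hosts and -0.45 ± 0.07 averaged, that is, 1.37-fold lower in Tm1N3 tumours.

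Il17rd, the FGF signalling inhibitor, had the lowest signal of the 3 genes and the widest line difference among knockout hosts and in the average, whereas among wild-type hosts that of Il17b was wider. Its log2 levels in Tm1N3 tumours were 4.01, 4.37 and 4.19 with a wild-type host and 4.07, 4.25 and 3.99 with a knockout host. Tm1G3 tumours had 4.90, 5.06 and 4.73 with a wild-type host and 5.24, 4.92 and 4.90 with a knockout host. The lines lay 0.36 apart at their nearest arrays. The line difference was -0.71 ± 0.13 (SE) for wild-type hosts and -0.92 ± 0.13 for knockout hosts, and the averaged difference of -0.81 ± 0.09 corresponds to 1.75-fold lower values in Tm1N3 tumours (95% interval of the log2 difference from -1.01 to -0.61). The dimmest 25% of probe sets had a mean level under 4.22, and 4 of the 6 Tm1N3 arrays were under that value for Il17rd, against none of the 6 Tm1G3 arrays. The lower side of this difference is thus near the dim end of the array. The mean log2 level of Il17rd, 4.55, stood at the 31.7 percentile.

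In all 3 genes the 6 arrays of one line lay apart from the 6 of the other, as they did in 3.29% of all probe sets. In wild-type hosts the groups lay apart in 16.9% of probe sets and in knockout hosts in 13.7%, and the 3 genes were among them in both. By an adjusted p under 0.05 in limma, 0.883% of probe sets were called for wild-type hosts (0.401% higher and 0.482% lower in Tm1N3), 0.722% for knockout hosts (0.161% higher and 0.562% lower) and 4.25% in the average (1.28% higher and 2.97% lower). As the line difference chose the genes, nothing is read from these counts. In bulk tumour RNA, fewer cells of a type and less RNA per cell cannot be told apart.

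**Figure D1:**
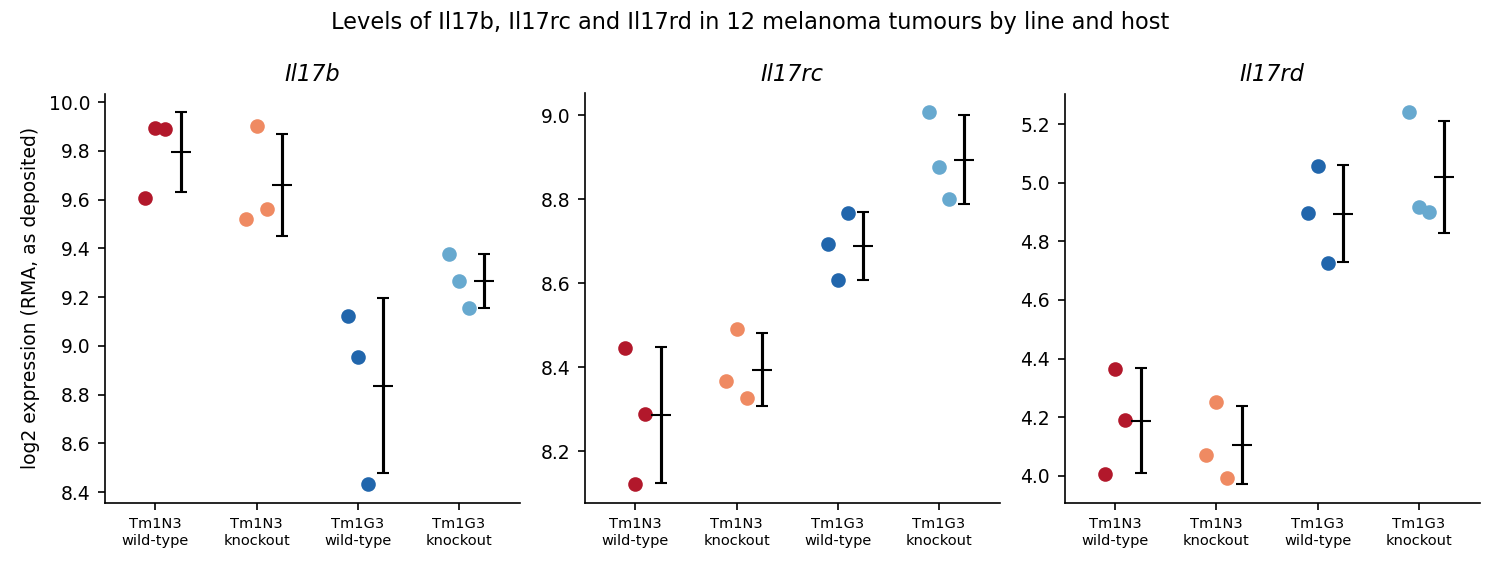
Log2 expression (y axis) of Il17b, Il17rc and Il17rd in each of 12 arrays, grouped on the x axis by tumour line and host; dots are arrays and the black bars the group mean and SD (n = 3 each). The y axes do not start at 0 and differ between panels. Il17b is higher in all 6 Tm1N3 arrays, at 9.52 or above, and Il17rc and Il17rd are higher in all 6 Tm1G3 arrays, at 8.61 and 4.73 or above.

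Within Tm1G3 tumours the mean of the knockout hosts was above that of the wild-type hosts for all 3 genes, with overlapping arrays for Il17rd, and within Tm1N3 tumours the hosts overlapped for all 3. For Il17b the order from high to low was Tm1N3 in wild-type hosts, at 9.80 ± 0.16 (SD, n = 3), Tm1N3 in knockout hosts, at 9.66 ± 0.21, Tm1G3 in knockout hosts, at 9.27 ± 0.11, and Tm1G3 in wild-type hosts, at 8.84 ± 0.36. The first pair overlapped, and the other neighbours lay 1.72 and 1.87 within-group SDs apart with no overlap of arrays. For Il17rc the order was Tm1G3 in knockout hosts, at 8.89 ± 0.11 (SD, n = 3), Tm1G3 in wild-type hosts, at 8.69 ± 0.08, and then, overlapping each other, Tm1N3 in knockout hosts, at 8.39 ± 0.09, and in wild-type hosts, at 8.29 ± 0.16. For Il17rd the hosts overlapped in both lines, at 5.02 ± 0.19 and 4.89 ± 0.17 (SD, n = 3 each) for knockout and wild-type hosts of Tm1G3 tumours and at 4.10 ± 0.13 and 4.19 ± 0.18 for those of Tm1N3 tumours.

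As each probe set has its own scale, the opposite course of Il17b and the 2 receptor genes was followed as deviations. Each gene was set against its own mean over the 12 arrays. The deviation of Il17b minus the mean deviation of Il17rc and Il17rd lay between 0.47 and 0.82 in the 6 Tm1N3 arrays and between -1.15 and -0.46 in the 6 Tm1G3 arrays. Among Tm1G3 tumours it was -0.79 ± 0.33 (SD, n = 3) in wild-type and -0.52 ± 0.06 in knockout hosts, and among Tm1N3 tumours 0.73 ± 0.15 and 0.58 ± 0.11. As each gene alone kept the lines apart, the ranges of the 2 lines could not overlap here, and nothing is read from that.

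Setting knockout against wild-type hosts asks whether galectin-3 of the host bears on these genes. None of the 3 genes passed here (limma, Benjamini-Hochberg over the 1246 probe sets, threshold 0.05). Il17b in Tm1G3 tumours had the largest, 0.43 ± 0.17 (SE) on the log2 scale, knockout minus wild-type, with a 95% interval from 0.05 to 0.81, all 3 knockout arrays above all 3 wild-type arrays and an adjusted p of 0.752. In Tm1N3 tumours Il17b differed by -0.13 ± 0.17, with an interval from -0.51 to 0.24 and overlapping arrays (adjusted p = 1.00). With an array left out, the Il17b host difference in Tm1G3 tumours ran from 0.23 (without WT_Tm1G3 replicate 3) to 0.57 (without WT_Tm1G3 replicate 1). Groups lay apart in 12.4% of all probe sets among Tm1G3 tumours, in 7.62% among Tm1N3 tumours and in 0.562% over both lines, and 0% were called.

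Il17rc differed between hosts by 0.21 ± 0.09 (SE) in Tm1G3 tumours, again with no overlap of arrays (limma adjusted p = 0.764), and by 0.11 ± 0.09 in Tm1N3 tumours (adjusted p = 1.00). Averaged over lines the host difference was 0.16 ± 0.07, with a 95% interval from 0.01 to 0.30 and an adjusted p of 0.749. For Il17rd it was 0.02 ± 0.09 averaged over lines, with an interval from -0.18 to 0.22 (adjusted p = 0.966). None of 1246 probe sets passed in limma in any host comparison, 54 had an unadjusted p under 0.05 in Tm1N3 tumours, 77 in Tm1G3 tumours and 78 in the average.

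The interaction asks whether the line difference depends on the host. For Il17b it was -0.56 ± 0.24 (SE), the line difference in knockout minus that in wild-type hosts, with a 95% interval from -1.10 to -0.03 and an adjusted p of 0.996 in limma. It was -0.10 ± 0.13 for Il17rc and -0.21 ± 0.18 for Il17rd (adjusted p = 0.996 each). No probe set passed and 35 of 1246 had an unadjusted p under 0.05. The smaller line difference of Il17b in knockout hosts is thus not shown to differ from that in wild-type hosts.

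**Figure D2:**
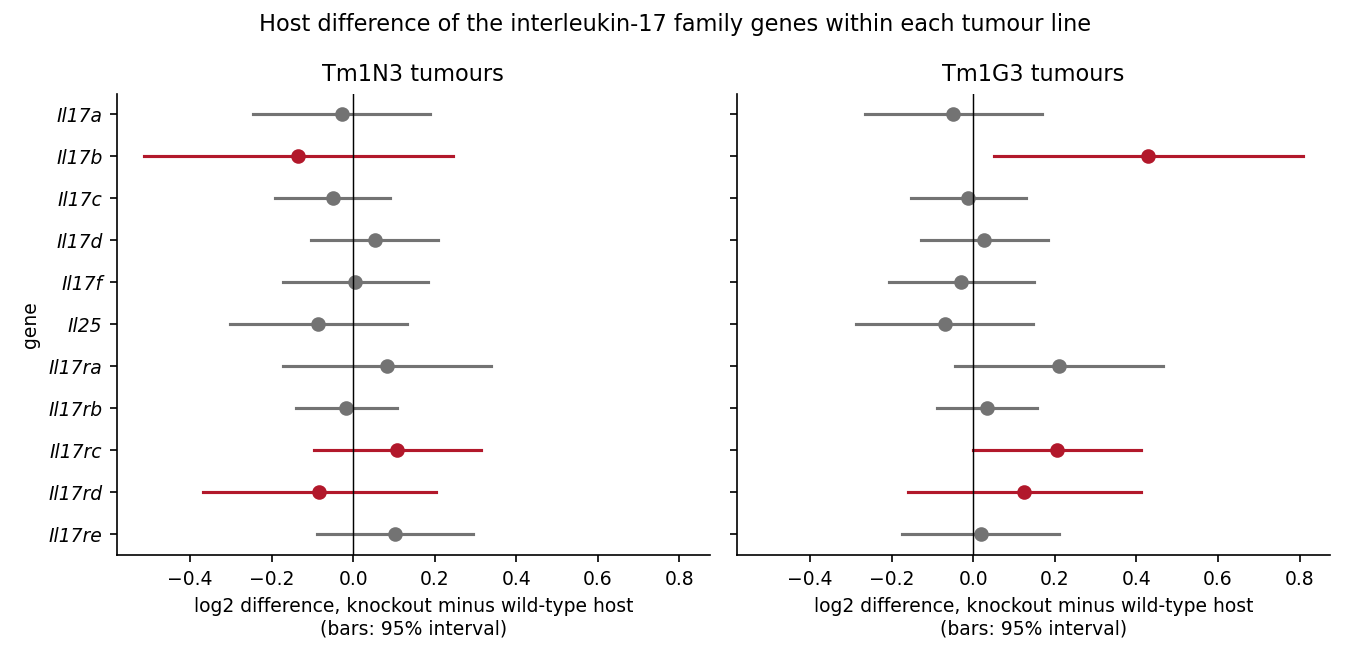
Log2 difference between knockout and wild-type hosts (x axis) of the 11 interleukin-17 family genes (y axis) in Tm1N3 and Tm1G3 tumours; dots are the limma estimates, bars their 95% intervals, and red marks Il17b, Il17rc and Il17rd. The largest value is that of Il17b in Tm1G3 tumours, 0.43 with an interval from 0.05 to 0.81 before any adjustment for the number of probe sets.

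Within the groups, where the line and host differences are removed, Il17b and Il17rd went together. Deviations of the 12 arrays from their group means correlated with r = 0.73 between Il17b and Il17rd, with r = 0.87 over the 6 Tm1N3 arrays and 0.66 over the 6 Tm1G3 arrays, all from arrays normalized together. Over all 12 arrays with the lines left in, r was -0.61, so the sign between lines was the opposite of the sign within them. Of 962 other named probe sets, 30, with Il17rd itself counted, had an r with Il17b at least as high, and the median was 0.02.

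Il17a, one of the dimmest probe sets at the 2.33 percentile, was also among those 30 with r = 0.76. Il17b and Il17rc had r = -0.14 within the groups. The receptors Il17rc and Il17rd had r = 0.83 over all 12 arrays but -0.15 within the groups, so their likeness lay in the line difference that chose them. The leading component of the within-group deviations held 51.0% of their variance and correlated with none of the 3 genes above 0.185 in size. These correlations are descriptions over 12 arrays.

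**Figure D3:**
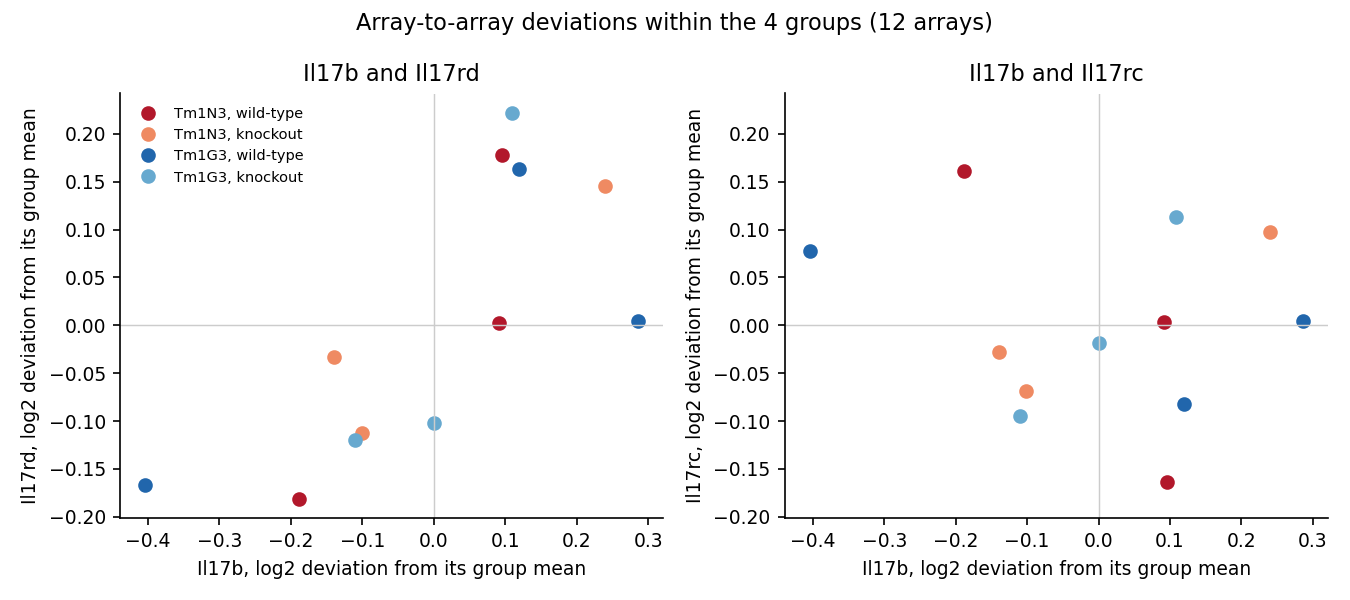
Deviation of Il17b from its group mean (x axis, log2) against that of Il17rd (left) and Il17rc (right) (y axes, log2); each dot is 1 of 12 arrays, coloured by line and host. Points rise from lower left to upper right for Il17rd (r = 0.73) and show no such course for Il17rc (r = -0.14).

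All 6 ligand genes and all 5 receptor genes of the family were measured, and the other 8 were described over the same contrasts. None of the 8 passed in the averaged line comparison, where 4.25% of all probe sets were called in limma, and Il17d and Il17ra had the largest differences. Il17d, a ligand with a mean log2 level of 6.44, had levels of 6.36, 6.36 and 6.21 in Tm1N3 tumours with a wild-type host and 6.40, 6.42 and 6.27 with a knockout host. Tm1G3 tumours had 6.58, 6.45 and 6.54 with a wild-type and 6.47, 6.62 and 6.56 with a knockout host. All 6 Tm1N3 arrays lay below all 6 Tm1G3 arrays, and the averaged difference was -0.20 ± 0.05 (SE; limma adjusted p = 0.0505), which passed without KO_Tm1G3 replicate 1 (adjusted p = 0.0452).

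Il17ra, the shared receptor chain, stood at a mean log2 level of 7.04 and differed by -0.17 ± 0.08 (SE) between lines, with a 95% interval from -0.35 to 0.01 (limma adjusted p = 0.337). Il17rb, the chain that binds IL-17B, was dim, at the 10.4 percentile, with all 12 arrays between 3.34 and 3.50. Its line difference was 0.01 ± 0.04, with an interval from -0.08 to 0.09, beside 0.68 for the ligand gene Il17b. Il17re, the chain for IL-17C, differed by -0.03 ± 0.06 on the brighter of its 2 probe sets and by 0.05 ± 0.06 on the other. The probe sets of Il17rb and Il17re bear Affymetrix's mark for probes that may match more than 1 transcript.

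The ligand genes Il17a, Il17c, Il17f and Il25 were dim, at the 2.33, 31.5, 18.3 and 30.8 percentile, beside 31.7 for Il17rd. Their averaged line differences were -0.06 ± 0.07, -0.04 ± 0.05, 0.00087 ± 0.06 and 0.03 ± 0.07 (SE). Over the 8 genes the median was -0.04, with 5 negative and 3 positive, beside a median of 0.00 over all probe sets. In the host comparison averaged over lines the 8 ranged from -0.08 to 0.15 and none passed.

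**Figure D4:**
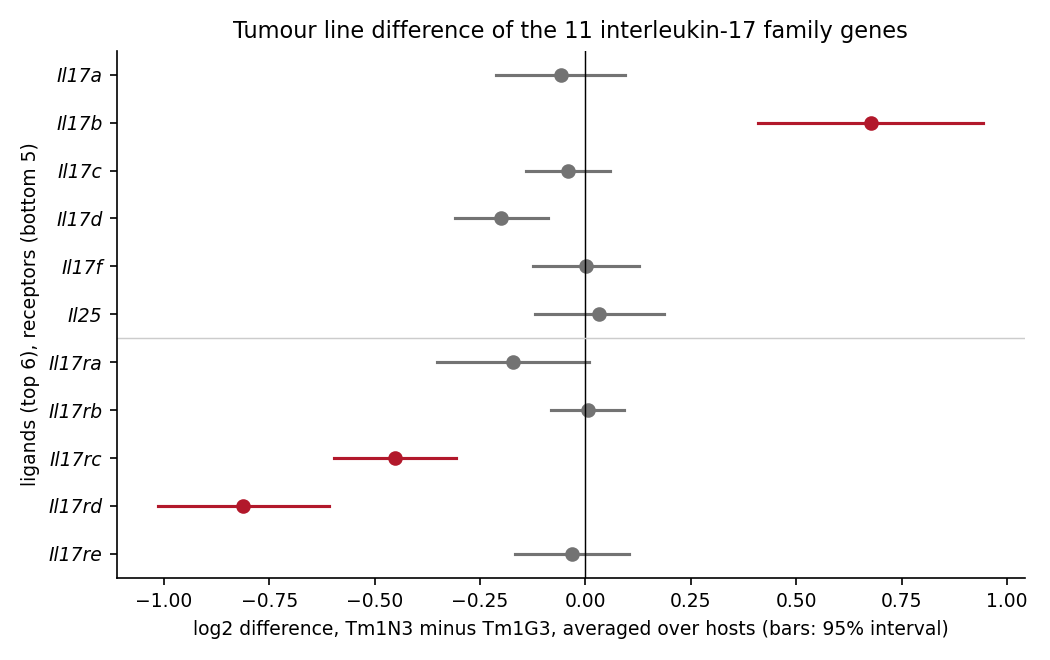
Log2 difference between Tm1N3 and Tm1G3 tumours averaged over hosts (x axis) of the 11 interleukin-17 ligand and receptor genes (y axis); dots are limma estimates, bars 95% intervals, and red marks the 3 genes chosen by this difference. Il17b lies at 0.68, Il17rc at -0.45 and Il17rd at -0.81, and the other 8 between -0.20 and 0.03.

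Of the genes that IL-17 is known to induce, 12 of 22 listed were measured, among them chemokines that draw neutrophils and the cytokine genes Il6, Csf3 and Il1b. None of the 12 passed in the averaged line comparison (limma, Benjamini-Hochberg), in which 4.25% of all probe sets were called. A list of 12 genes with none called is near that share. In that comparison 204 of 1246 probe sets had an unadjusted p under 0.05. Of the 12, 9 were negative with a median of -0.19. Ccl7 (-0.56 ± 0.38, SE), Icam1 (-0.26 ± 0.18) and Il6 (-0.41 ± 0.30) had the smallest p.

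In wild-type hosts the median of these 12 was -0.40, but it rested on 1 array. Il1b was 11.1 in WT_Tm1G3 replicate 1 against 6.45 and 6.35 in the other 2 arrays of that group, and Cxcl2 was 10.004 against 5.19 and 4.90. Without that array the median was 0.03 in wild-type hosts and -0.02 in the average, an alternative chosen after seeing the data. That array lay within the range of the other Tm1G3 arrays in Il17b, Il17rc and Il17rd, with 9.12 for Il17b, 8.69 for Il17rc and 4.90 for Il17rd.

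Of 19 listed genes of the IL-23 and Th17 axis, which drives T cells that make IL-17, 14 were measured. Il12rb1, a chain shared by the IL-12 and IL-23 receptors, was lower in Tm1N3 tumours and 13 did not pass (limma adjusted p = 0.0206 for Il12rb1). Its log2 levels ran from 6.05 to 6.41 in Tm1N3 arrays and from 6.61 to 7.35 in Tm1G3 arrays, without overlap, and the averaged difference was -0.64 ± 0.13 (SE). The cytokine subunit gene Il23a (-0.04 ± 0.09) and the receptor gene Il23r (-0.0012 ± 0.07) had differences within their SE. The median of the 14 was -0.02, beside 0.00 over all probe sets, and 2.97% of all probe sets were called lower.

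Because IL-17RD restrains FGF signalling, 42 genes of that pathway were listed and 26 were measured, 22 Fgf genes and 4 receptor genes. No listed gene that acts downstream of the receptors, such as Spry1, Dusp6 or Etv4, was among the named probe sets. The measured genes therefore do not show how strong FGF signalling was. Fgf1, a growth factor for many cell types, was lower in Tm1N3 tumours and 25 did not pass (limma adjusted p = 0.00808 for Fgf1). Its log2 levels ran from 5.77 to 6.28 in Tm1N3 and from 6.46 to 6.64 in Tm1G3 arrays, a difference of -0.53 ± 0.09 (SE). This 1 of 26 genes stands beside 4.25% of all probe sets called in this comparison and 2.97% called lower, so the list's share is near that of the whole array. No gene of the list passed after the values were quantile normalized again. Fgf21, a metabolic hormone, had a larger but more variable difference of -1.46 ± 0.41 (adjusted p = 0.0849), with 5.35 in WT_Tm1G3 replicate 1 against 7.18 to 8.33 in the other 5 Tm1G3 arrays. The receptor genes had differences of 0.12 ± 0.07 for Fgfr1, 0.05 ± 0.04 for Fgfr2, 0.09 ± 0.04 for Fgfr3 and 0.04 ± 0.05 for Fgfr4, and none passed. The list's median was 0.02.

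**Figure D5:**
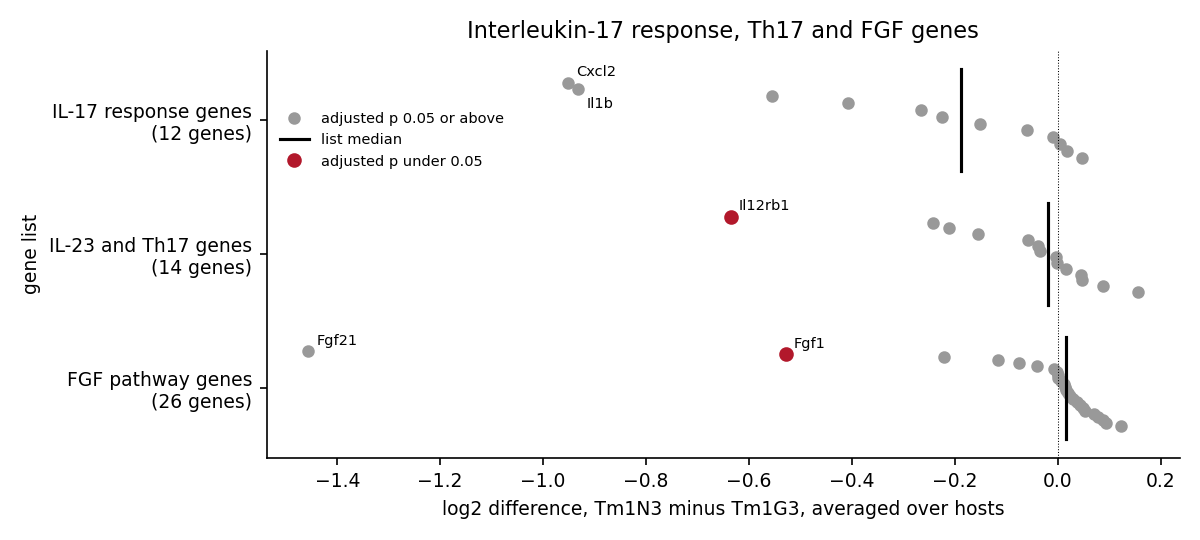
Log2 difference between Tm1N3 and Tm1G3 tumours averaged over hosts (x axis) for genes of 3 lists (y axis; 12 IL-17 response genes, 14 IL-23 and Th17 genes and 26 FGF pathway genes); each dot is a gene, red where limma's adjusted p is under 0.05, and the black line is the list's median. Il12rb1 at -0.64 and Fgf1 at -0.53 are the red dots, and the medians are -0.19, -0.02 and 0.02.

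None of 18 listed signal transducers of the IL-17 receptors was among the named probe sets. Some markers of other cells differed with the tumour line at the same limma threshold, by which 4.25% of all probe sets were called (1.28% higher and 2.97% lower in Tm1N3). Of 10 listed melanocyte and melanoma markers 2 were measured, Mcam (log2 difference 0.66 ± 0.15, SE, higher in Tm1N3) and Kit (-0.99 ± 0.15, lower), which thus differed in opposite directions, and the defining pigment cell genes such as Tyr and Mlana were not among the named probe sets, so the label of melanoma was not checked by them. Of 13 T and NK cell markers 4 were measured. The log2 of their summed levels ran from 8.12 to 8.67 in Tm1N3 and from 8.62 to 9.23 in Tm1G3 arrays. That sum was mostly Ccl5, at 8.12 in Tm1N3 tumours of wild-type hosts against 4.79 for Il2rb, 4.60 for Cd2 and 3.13 for Klrk1. Ccl5 (-0.65 ± 0.12) was lower, while Cd2 (-0.07 ± 0.09), Il2rb (-0.01 ± 0.10) and Klrk1 (0.08 ± 0.06) did not pass. The 3 macrophage markers summed to between 8.18 and 10.1 in Tm1N3 and between 9.04 and 9.98 in Tm1G3 arrays and none passed. The 2 neutrophil markers ran from 5.99 to 6.45 and from 6.01 to 7.47 and none passed. The 3 endothelial ones ran from 9.68 to 10.5 and from 9.93 to 10.7. Icam2 (-0.40 ± 0.08) was lower, while Pecam1 (-0.13 ± 0.18) and Cd34 (0.17 ± 0.21) did not pass. The 4 fibroblast ones ran from 8.55 to 10.4 and from 9.11 to 10.1. Fbln5 (0.76 ± 0.12) was higher, while Dcn (-0.51 ± 0.47), Pdgfra (0.06 ± 0.37) and Pdgfrb (-0.0024 ± 0.14) did not pass. The B cell marker Cd22 had a difference of -0.02 ± 0.07, and Lgals7, listed for epithelium, was higher (0.63 ± 0.15). The part of these cells in the levels of Il17b, Il17rc and Il17rd was not tested.

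Lgals3, which encodes galectin-3, was bright in all 4 groups. Its log2 levels in Tm1N3 tumours were 9.80, 9.72 and 10.4 with a wild-type host and 9.35, 9.69 and 10.6 with a knockout host. Tm1G3 tumours had 9.52, 9.33 and 9.99 with a wild-type host and 9.15, 9.80 and 8.98 with a knockout host. The 4 groups overlapped, and the gene differed by 0.46 ± 0.23 (SE) between lines, averaged over hosts (limma adjusted p = 0.376), and by -0.21 ± 0.23 between hosts, averaged over lines (adjusted p = 0.852). No source used here places its probe set against the deletion or the plasmid, so these levels do not check either label, and the directions given here rest on the labels.

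The genes whose levels were most like those of each of the 3 over the 12 arrays were taken by Pearson's r among 962 other named probe sets, as a description of arrays that fall into 2 lines. For Il17b they were Alg8 (r = 0.92), an enzyme of N-glycan precursor assembly, the lysosomal enzyme genes Galc (0.91) and Sgsh (0.91), and Mcoln3 (0.89), an endosomal channel. Within the groups the first 3 kept r from 0.74 to 0.87 and Mcoln3 had 0.43. The lowest r belonged to Flt3l (-0.88), a growth factor of dendritic cells, and Pfdn5 (-0.87), a chaperone subunit, with -0.89 and -0.56 within the groups.

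For Il17rc the highest were Havcr2 (0.92), which encodes the checkpoint receptor TIM-3, Ccl5 (0.92), a T cell chemokine, Sar1a (0.92), a GTPase of vesicle export, and Anapc2 (0.90), a subunit of a cell cycle ubiquitin ligase. Their r within the groups lay between 0.37 and 0.63. The lowest were Fbln5 (-0.87), an elastic fibre gene, and Mgat2 (-0.83), an N-glycan branching enzyme, at -0.24 and -0.66 within the groups.

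For Il17rd the highest were Slc35f1 (0.95), Frem1 (0.94), a basement membrane gene, the heparan sulfate proteoglycan gene Sdc2 (0.93) and again Havcr2 (0.93), with r from 0.34 to 0.67 within the groups. B3galt4 (-0.91), a galactosyltransferase, and Il3ra (-0.86), a cytokine receptor chain, were the lowest, at -0.52 and 0.01 within the groups. Havcr2 was the gene that stood among the top 4 of both receptor genes, which had r = 0.83 with each other over the 12 arrays. No gene of the top 4 of Il17b was among those of either receptor. Il17b had r = -0.65 with Il17rc and -0.61 with Il17rd over the 12 arrays. A gene so like Il17b could thus not be as like a receptor gene, and nothing is read from these overlaps.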

How the data were processed

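Biotin-labelled cRNA from Trizol-extracted total RNA was hybridised to Affymetrix arrays, per the labels' protocols. The authors deposited log2 values, 1 column per array, made with RMA (background correction, quantile normalization and probe set summary), per the submitters' processing notes; its version is not stated. They ran from 2.14 to 13.9, array medians lay within 0.0945, and no 2 arrays were identical (Pearson r from 0.976 to 0.998 across probe sets). Without scanner files, signal over background was not examined here. Precision is limited by the array number.

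Of 1246 probe sets, 963 were named through the RefSeq accession in their names and a table of GRCm38.p6 genes, for 909 symbols. A model of 4 group means over 12 arrays was fitted with limma 3.58.1 in R 4.3.3 (8 residual and 2.39 prior degrees of freedom), and p-values were adjusted by Benjamini-Hochberg over all probe sets. The threshold was 0.05. The fit was first tested on simulated data. The members and gene lists were chosen with earlier results of these data known. Named are the 3 genes, the family, and called list members or otherwise up to 3 by p. Up to 2 markers a list by size are named, and the 4 highest and 2 lowest by r. Il1b, Cxcl2, Fgf21, Il23a, Il23r and the FGF receptors were added after their values were seen. So were the T and NK cell, endothelial and fibroblast markers that did not pass.

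Replicate numbers are shared between groups. Deviations of same-numbered arrays of the 2 hosts correlated from 0.184 to 0.752 in Tm1N3 and from 0.249 to 0.308 in Tm1G3 tumours. Same-numbered arrays of the 2 lines had r between 0.00808 and 0.544 with wild-type hosts, and between -0.660 and 0.273 with knockout hosts. The former range spans that of the Tm1G3 hosts. Arrays with different numbers were not set against each other, so these values cannot say whether the numbers pair arrays. The main model held no replicate block, and blocks entered only as alternatives. The titles also open with a number, and the replicate numbers follow its order within every group. All knockout samples have lower title numbers than all wild-type samples, so host and this order cannot be told apart. What either kind of number marks is not in the labels.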

Additional observations from a re-analysis of the deposited data

How the results depend on the processing

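The 3 genes were recomputed under 21 alternatives: quantile normalizing again, centring arrays on their medians, leaving out the dimmest 25% of probe sets, fitting only the 2 groups compared, an intensity trend, 3 forms of replicate block, averaging the probe sets of a gene, and leaving out each of 12 arrays. All 177 line values of the 3 genes kept their sign and moved by less than 1 SD. With an array left out, the averaged line difference ran from 0.58 to 0.75 for Il17b, from -0.49 to -0.41 for Il17rc and from -0.86 to -0.76 for Il17rd. None of 246 host and interaction values passed an adjusted p of 0.05 in limma, and 5 changed sign, all of them for Il17rd with an array left out, where the host difference averaged over lines ran from -0.035 to 0.066 and that in Tm1N3 tumours from -0.17 to 0.0060. The replicate block within a line changed no call, with an adjusted p of 0.453 (fixed) and 0.379 (random) for the Il17b host difference of 0.43 in Tm1G3 tumours.

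Of the other 8 family genes, 0 passed in the averaged line comparison, and 1, Il17d, passed when the probe sets of a gene were averaged, which leaves fewer features to test, and without KO_Tm1G3 replicate 1. Differences near 0 changed sign for Il17f after quantile normalizing again (-0.0046) and for Il17re with its probe sets averaged (0.010). With an array left out they ran from -0.021 to 0.039 for Il17f, from -0.0068 to 0.029 for Il17rb, from -0.056 to 0.0088 for Il17re and from -0.0024 to 0.072 for Il25. The 53 probe sets called between lines were 16 higher and 37 lower, or 29 higher after quantile normalizing again, and 32 in all without KO_Tm1G3 replicate 2. For wild-type hosts 11 were called, 6 after median centring, 3 with only the 2 groups fitted, and from 2 (without WT_Tm1G3 replicate 3) to 21 with an array left out. For knockout hosts 9 were called, 4 with only the 2 groups fitted, and from 5 to 13 with an array left out. The low level of Il17rd in Tm1N3 tumours and 3 arrays a group limit what could be detected.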
